A study of Caenorhabditis elegans with 2 samples.

Results

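The cytosolic and mitochondrial heat shock proteins and their J domain partners form the general protein folding system of the cell. This account follows where their genes stood in a map of CEH-82, a homeodomain protein, in Caenorhabditis elegans. The genes were taken by name from Ensembl release 115 (assembly WBcel235, the same coordinates as ce11): every protein-coding gene on the 6 chromosomes whose name starts with hsp- or dnj-, except hsp-3 and hsp-4. That gave 49 of 19973 protein-coding genes, of which 20 are hsp- genes and 29 are dnj- genes. The rule uses names alone.

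There was 1 group of 2 samples, which the labels give as biological replicates 1 and 2. Each was a whole-worm chromatin immunoprecipitation with sequencing (ChIP-seq) from mixed-sex larvae at the L3 stage, in strain OP212. This strain carries the allele unc-119(ed3) on linkage group III and the transgene ddEx58, and the target was CEH-82 fused to eGFP. No source used here names the promoter that drives the fusion. Signal from whole animals does not tell cell types apart. No other condition was analysed here, so the comparisons below run between genes within these 2 samples, as a description with no test.

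HSP70 proteins bind unfolded stretches of other proteins and release them in a cycle of ATP hydrolysis. J domain proteins, the DnaJ family, deliver clients and start that hydrolysis, and HSP110 proteins exchange the nucleotide so that the client is let go. HSP90 acts on proteins that are nearly folded, and HSP60 folds proteins inside a mitochondrial chamber. Small heat shock proteins hold unfolded proteins without ATP. Some of these genes are active in every healthy cell, while others, the hsp-16 genes and hsp-70 among them, are almost silent until heat or another stress activates the transcription factor HSF-1, which binds repeated GAA units known as heat shock elements.

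A gene was counted as having a peak where a peak summit lay from 500 bp upstream to 100 bp downstream of its annotated start. Peaks came from the authors' reproducible list of 748, in which each carries a signal value on a scale that no source used here gives. This list was identical to the 748 strongest entries of the longer candidate list called on both samples pooled, in position, summit and signal (to 6 decimal places, 748 of 748). Values can therefore be compared along one list, and each replicate's own candidate list has its own scale. Candidate lists mix peaks with background: the pooled one and that of replicate 1 each held 30000 entries, and that of replicate 2 held 22611. Read totals were not used here, so depth is unknown.

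Reproducible peaks lay at the main cytosolic HSP70 gene, at its HSP110 partner and at 6 J domain genes, and at none of the small heat shock genes. Of the 49 genes, 8 had a peak in the window (16.3%) and 41 had none, where 2.39% of all protein-coding genes had one. The 6 genes of the constitutive list (hsp-1, hsp-6, hsp-60, hsp-75, hsp-90 and hsp-110) held 2 of these, and the 29 dnj- genes held 6. The 7 heat-inducible genes (hsp-16.1, hsp-16.11, hsp-16.2, hsp-16.41, hsp-16.48, hsp-16.49 and hsp-70) held 0, and the 7 other small heat shock genes held 0. The 8 genes with a peak had 8 distinct strongest peaks. The count depended on how a peak is given to a gene: with a window from 250 bp upstream to 50 bp downstream it was 4 (8.16%, against 1.57% of all protein-coding genes), and where a peak counted solely for the closest start, at most 2 kb off, it was 2 (4.08%, against 2.03%). Under both of these rules the constitutive list had 0 of 6, the same count as the inducible list.

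The sequences below are the bases around the summit of 6 of these 8 peaks, shown so that they can be read beside a heat-inducible promoter. The summits of dnj-19 and dnj-28 are not shown, and each of those also held 2 neighbouring heat shock units. Each has 101 bases from ce11, read 5′ to 3′ on the strand of the chaperone gene from the RefSeq genome of this assembly. They lie at chrIV:17278524-17278624 (hsp-1, plus strand), chrIII:8447138-8447238 (hsp-110, minus strand), chrII:11545410-11545510 (dnj-13, plus strand), chrX:4712047-4712147 (dnj-14, minus strand), chrV:8462245-8462345 (dnj-22, minus strand) and chrII:4851766-4851866 (dnj-9, plus strand). Capitals mark the words searched on both strands: TGCGC and its reverse, then GTCTC, then the repeat GAGAGAG and its reverse, and finally 2 neighbouring heat shock units, written GAANNTTC or TTCNNGAA, where N is any base. Where 2 copies of a word overlap, the capitals run on.
hsp-1: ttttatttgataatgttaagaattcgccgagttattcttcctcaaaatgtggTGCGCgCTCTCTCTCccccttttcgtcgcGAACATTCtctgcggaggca
hsp-110: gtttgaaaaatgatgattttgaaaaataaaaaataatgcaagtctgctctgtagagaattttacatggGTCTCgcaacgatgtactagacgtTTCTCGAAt
dnj-13: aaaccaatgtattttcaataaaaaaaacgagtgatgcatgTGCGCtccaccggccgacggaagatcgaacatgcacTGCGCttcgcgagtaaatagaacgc
dnj-14: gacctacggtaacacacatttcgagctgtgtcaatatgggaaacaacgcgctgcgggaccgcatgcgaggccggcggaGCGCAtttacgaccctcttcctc
dnj-22: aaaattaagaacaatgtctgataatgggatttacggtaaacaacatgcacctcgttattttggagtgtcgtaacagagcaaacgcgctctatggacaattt
dnj-9: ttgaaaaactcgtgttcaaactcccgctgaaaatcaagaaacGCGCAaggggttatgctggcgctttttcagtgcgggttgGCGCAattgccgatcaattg

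For contrast, the stretch between the divergent starts of hsp-16.2 and hsp-16.41, at chrV:1804958-1805177 (plus strand, 220 bases), held no entry of any of the 4 lists. Capitals here mark the heat shock units, GTCTC on either strand and the longer word CTGCGTC. At the first match 3 units follow each other.
hsp-16.2 and hsp-16.41: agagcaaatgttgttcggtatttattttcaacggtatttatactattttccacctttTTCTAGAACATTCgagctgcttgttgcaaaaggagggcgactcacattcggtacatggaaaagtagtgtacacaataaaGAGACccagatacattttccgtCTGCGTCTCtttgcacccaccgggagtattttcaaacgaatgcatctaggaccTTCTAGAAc

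**Figure D1:**
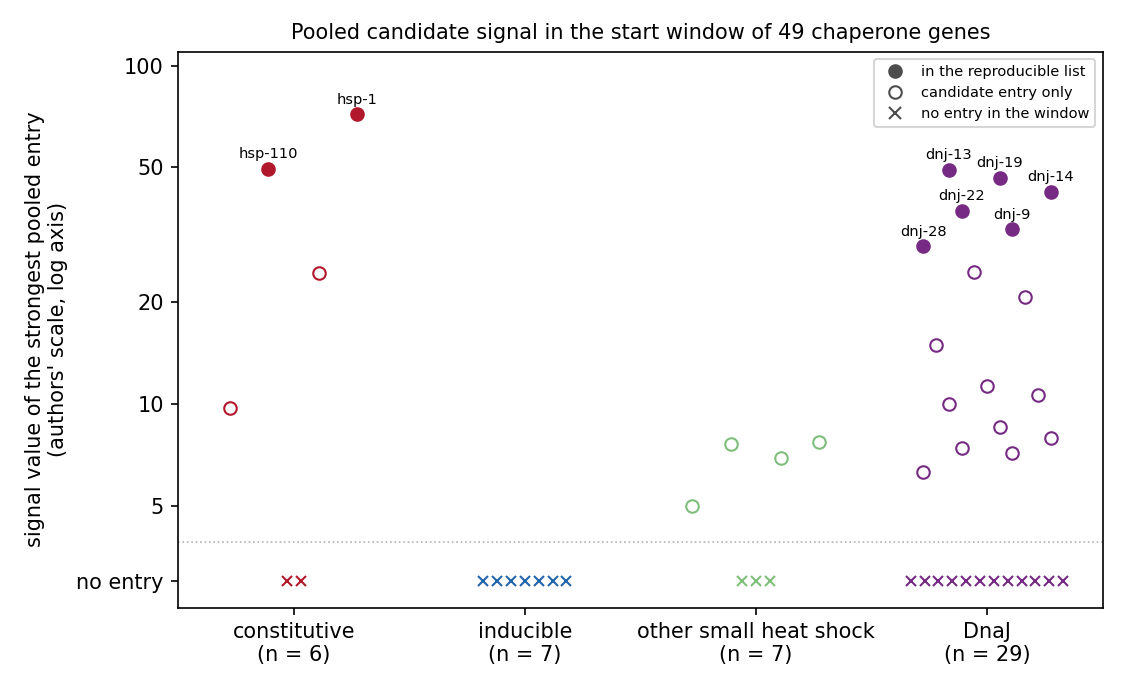
Signal value of the strongest pooled candidate entry in the start window (y axis, authors' scale, log axis) for each of the 49 genes, by class; filled points are in the reproducible list, open points are candidate entries, and crosses are genes with no entry. The inducible class holds 7 crosses, while hsp-1 is the highest point at 71.7.

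Among HSP70 system genes, hsp-1 had the strongest peak of all 49. hsp-1 (WBGene00002005) encodes the constitutive cytosolic HSP70 and lies at chrIV:17278959-17281330 on the plus strand. Its peak had a signal of 71.7 in the pooled list (position 83 of 748), 48.4 in replicate 1 (position 106 of that list) and 21 in replicate 2 (position 93). It stood within the strongest 748 entries of both replicates. The summit was 385 bp upstream of the start, and the replicates' own summits were 70 bp apart.

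hsp-110 (WBGene00016250) encodes the nucleotide exchange factor of the HSP110 family. Its peak had a signal of 49.6 in the pooled list, 33.4 in replicate 1 and 16.2 in replicate 2. The summit lay 279 bp upstream of hsp-110 and 165 bp upstream of rpn-3, a subunit of the proteasome cap that is transcribed the other way. Its place in the lists was 211 (pooled), 284 (replicate 1) and 168 (replicate 2), so both replicates ranked it among their strongest 748. It can be given to either gene.

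Both replicates also placed the cytosolic J domain genes dnj-13 and dnj-19 among their 748 strongest entries. The dnj-13 gene, of the type B J domain proteins, had 49.2 in the pooled list, 33.7 in replicate 1 and 17.7 in replicate 2. For dnj-19, of type A, the values were 46.6 (pooled), 36.5 (replicate 1) and 11.1 (replicate 2). The other type A gene, dnj-12, had an entry in all 3 candidate lists but no reproducible peak, with 20.7 (pooled), 15.6 (replicate 1) and 6.81 (replicate 2, with its summit at -345 bp where the other lists had -171 bp). All 3 cytosolic type A and B genes therefore had candidate entries in both replicates, and dnj-12 stood lowest of them in each list.

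The other J domain genes with a peak were dnj-14, dnj-22, dnj-9 and dnj-28. dnj-14 encodes the cysteine string protein of synaptic vesicles, and its peak had 42.4 in the pooled list, 29.1 in replicate 1 and 12.9 in replicate 2. It was among the strongest 748 of both replicates. dnj-22 had 37.2 in the pooled list, 25.5 in replicate 1 and 8.20 in replicate 2. dnj-9 had 32.8 in the pooled list, 17.7 in replicate 1 and 13.6 in replicate 2. For dnj-28 the lists placed their summits differently. Its window held 2 reproducible summits, one 322 bp upstream of the start with a signal of 29.2 and one 113 bp upstream with 27.9, close to the list's lowest value of 26.9. Replicate 1 had 1 entry there, 114 bp upstream, with 23.7, and replicate 2 had 2, with 6.57 at 267 bp and 4.76 at 68 bp upstream. Replicate 1 therefore had no summit of its own near the stronger of both reproducible ones. Of the 36-base stretches in the dnj-28 window, 36.4% occurred elsewhere in the genome, where each other gene with a peak had 0%. Whether this bears on the summits was not tested. By the strongest entry in the window, dnj-22, dnj-9 and dnj-28 each fell outside the strongest 748 of 1 replicate: dnj-22 and dnj-28 of replicate 2 (positions 840 and 1554), and dnj-9 of replicate 1 (position 1037).

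Signal in replicate 1 was above that in replicate 2 at the 7 peaks whose interval held the summits of both replicates, by 1.30 times at dnj-9 to 3.30 times at dnj-19, with a median of 2.25. Over the 695 reproducible peaks of that kind the median was 2.76. The stronger peak of dnj-28 was not among them. As the lists have separate scales, this ratio does not say that more protein was recovered in replicate 1. Of the 49 genes, 8 were among the 748 strongest entries of replicate 1 (16.3%, against 2.31% of all protein-coding genes) and 6 among those of replicate 2 (12.2%, against 2.12%). hsp-1, hsp-110, dnj-13, dnj-14 and dnj-19 were in both.

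**Figure D2:**
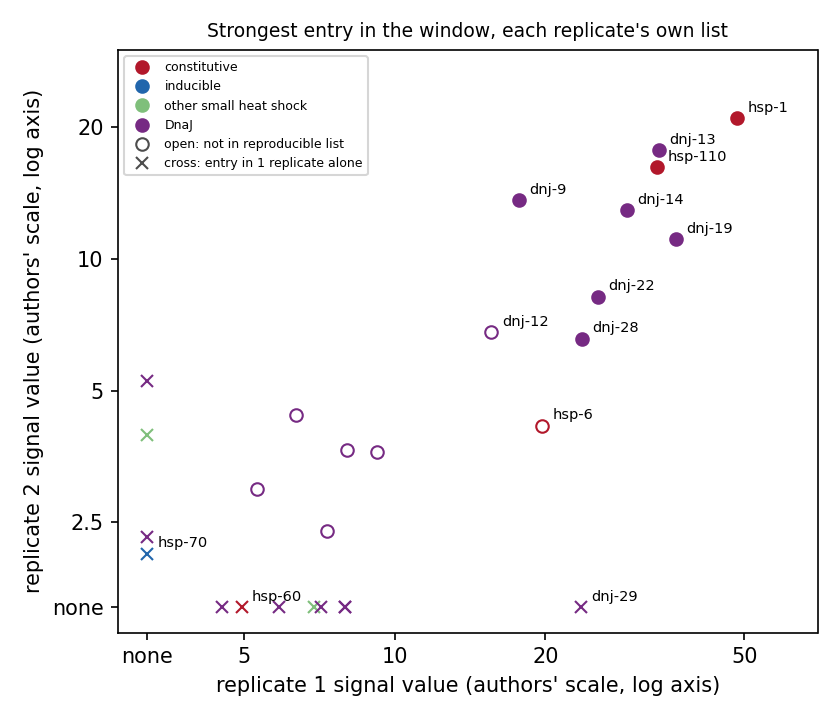
Signal value of the strongest entry in the window in replicate 1 (x axis) and replicate 2 (y axis), both on log axes and on the authors' scale, for genes with an entry in either list; filled points are in the reproducible list, crosses are genes listed in 1 replicate alone. hsp-1 is highest on both axes, and dnj-29 and hsp-60 have no entry in replicate 2.

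Next below the reproducible list stood a mixed group of 5 genes. dnj-29, which encodes a SEC63-like J protein of the endoplasmic reticulum translocon, had 24.6 in the pooled list and 23.6 in replicate 1, at position 595, but no entry in its window in replicate 2. hsp-6, the mitochondrial HSP70, had 24.3 in the pooled list, 19.7 in replicate 1 and 4.16 in replicate 2. Then came dnj-12, dnj-25 (14.9 pooled, 8.03 in replicate 1 and 3.65 in replicate 2), of the auxilin family that uncoats clathrin vesicles, and dnj-11 (11.3 pooled, 6.34 in replicate 1 and 4.39 in replicate 2). The gap between dnj-29 at 24.6 and dnj-28 at 29.2 holds the boundary of the reproducible list.

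Counted over any candidate entry, the constitutive and dnj- genes had larger shares listed than protein-coding genes as a whole in each of the 3 lists, and the inducible genes had at most 1 of 7. An entry in the pooled list lay in the window of 25 of the 49 genes (51.0%, against 25.5% of all protein-coding genes). The constitutive list had 4 of 6, the dnj- genes 17 of 29, the other small heat shock genes 4 of 7 and the inducible genes 0 of 7. In replicate 1 the count was 23 of 49 (46.9%, against 24.6%), with 4 of 6 constitutive and 0 of 7 inducible genes. In replicate 2 it was 19 of 49 (38.8%, against 19%), with 3 of 6 constitutive genes and 1 of 7 inducible genes. No test was made of these differences, and with 6 and 7 genes a single gene moves a share by a large step.

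**Figure D3:**
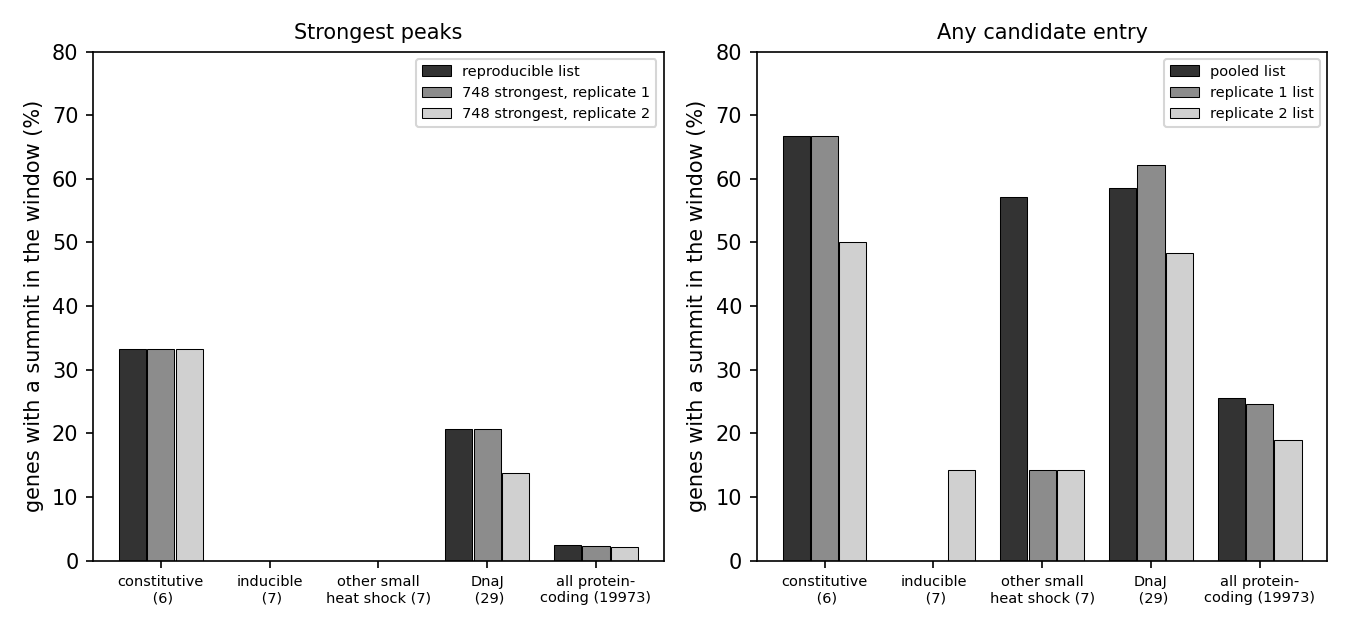
Share of genes with a summit in the window (y axis, percent) for the 4 classes and all protein-coding genes, with the reproducible list and the 748 strongest entries of each replicate on the left and any candidate entry on the right. The inducible class is at 0 except for 1 gene in replicate 2, while 2.39% of all protein-coding genes had a reproducible peak.

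The heat-inducible genes had almost no entry in any list. This was a common state, as 63.4% of all protein-coding genes had none in any of the 4 lists. The absence alone therefore does not set these few genes apart. hsp-70 had 1 entry, in replicate 2 alone, with a signal of 2.12 at position 21033 of 22611, and none in replicate 1 or the pooled list. All 6 hsp-16 genes had none in any of the 4 lists. For the 7 inducible genes the nearest reproducible summits were from 55430 bp (hsp-70) to 87632 bp (hsp-16.1) away. Other chaperone genes had both larger distances, such as 222764 bp for hsp-6, and smaller ones, such as 36747 bp for hsp-75. The distance over all protein-coding genes is not given here. Of the inducible genes, hsp-16.1 and hsp-16.11, hsp-16.48 and hsp-16.49 stand in a duplicated cluster on chromosome V. Ensembl uses 1 name for each pair there, and RefSeq separate names. In all 4 of these windows every 36-base stretch (100%) occurred elsewhere in the genome, so reads from them may not be assigned to 1 place. No source used here says how the authors treated such reads. The windows of hsp-16.2, hsp-16.41 and hsp-70 were nearly or fully unique, with 2.30%, 1.41% and 0% of 36-base stretches repeated, and they also lacked a pooled entry. Divergent pairs with overlapping windows are formed by hsp-16.2 with hsp-16.41, by hsp-16.1 with hsp-16.48 and by hsp-16.11 with hsp-16.49, so the 6 hsp-16 genes are 3 intergenic stretches and not 6 separate observations.

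Other inducible HSP70 genes outside the naming rule gave a different picture. F44E5.4 and F44E5.5 are heat-inducible HSP70 genes that face away from each other, and they share 1 pooled entry with a signal of 19.3, at position 1418. That entry had 14.0 in replicate 1 and 5.04 in replicate 2. It was below the reproducible list, but it was stronger than anything at hsp-70 and the hsp-16 genes.

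The other small heat shock genes had weak entries at most. In the pooled list 4 of 7 had one, from 4.99 (hsp-25) to 7.69 (hsp-12.1), where the median pooled entry of protein-coding genes with one was 8.83. hsp-12.6 and hsp-43 had 7.59 and 6.92, and hsp-12.2, hsp-12.3 and hsp-17 had none. In each replicate's own list 1 of the 7 had an entry, hsp-43 in replicate 1 (6.91) and hsp-12.1 in replicate 2 (3.95). No gene of this class had an entry in all 3 candidate lists.

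The constitutive genes without a peak in the window fell into those with a peak a little farther out and those with none near. The mitochondrial chaperonin gene hsp-60 had a reproducible peak with a signal of 66.0, at position 101 of the list, 613 bp upstream of its start. From the start of Y22D7AL.10 this summit was at -200 bp. Y22D7AL.10 is the mitochondrial heat shock protein of 10 kDa per RefSeq. Such proteins form the lid of the HSP60 chamber, and the gene starts 813 bp away on the opposite strand. For hsp-90, the cytosolic HSP90, a reproducible peak with a signal of 49.7 lay 855 bp downstream of the gene start. It was at -387 bp from the start of its other annotated transcript and at -288 bp from C47E8.4 (a FAM50 homologue per RefSeq). hsp-75, of the mitochondrial HSP90 type, had no entry in any list, and its nearest reproducible summit was 36747 bp away. hsp-6 had candidate entries only. Inside the window itself hsp-60 had a candidate entry with 9.72 (pooled) and 4.94 (replicate 1).

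The only other peak within 2 kb of a start was near a small heat shock gene. It lay 696 bp downstream of the start of hsp-12.3, with a signal of 58.6, and at -45 bp from the noncoding gene F38E11.24. It was not counted for hsp-12.3.

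**Figure D4:**
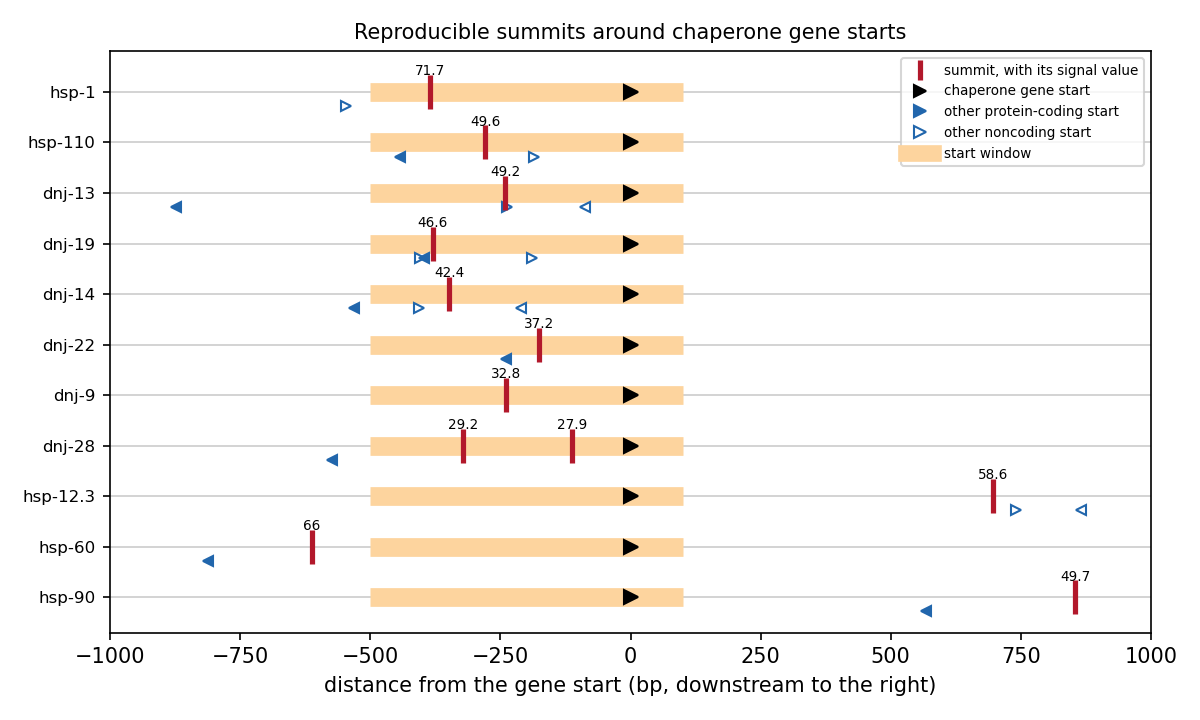
Reproducible summits (red bars with signal values) within 1000 bp of chaperone gene starts (x axis, bp from the start, downstream to the right); the shaded band is the start window, blue triangles are starts of other genes, filled for protein-coding and open for noncoding, and point in their direction of transcription. In 6 of the 8 genes with a peak in the window a divergent protein-coding start stands on the far side of the summit. These starts are 239 to 873 bp from the chaperone start, and the same count over all protein-coding genes is not given here.

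The peaks lay upstream of the chaperone starts rather than on them, and most stood nearer to another gene. The strongest summit in the window was 175 bp (dnj-22) to 385 bp (hsp-1) upstream, with a median offset of -300 bp, while the 477 protein-coding genes with a peak had a median of -194 bp. Of those 477 genes, 162 (34.0%) had their strongest summit within 150 bp of the start, and of the 8 chaperone genes 0 had, although the weaker summit of dnj-28 was 113 bp from its start. From the strongest summit, the nearest start of any gene was that of the chaperone gene itself only for dnj-9, and from the weaker summit of dnj-28 it was that of dnj-28. For hsp-110, dnj-13, dnj-14 and hsp-1 it was an annotated noncoding RNA gene, at 93, 4, 57 and 161 bp. For dnj-19, dnj-22 and the stronger summit of dnj-28 it was a divergent protein-coding gene: nhr-47, a nuclear hormone receptor, at 16 bp, natc-1, a MAK10 homologue per RefSeq, at 64 bp, and supr-1 at 252 bp. These 3 genes, rpn-3 and the neuroligin-like gene glit-1 (182 bp from the summit at dnj-14) also had the peak in their own window. So 5 of the 8 peaks were shared with a divergent protein-coding gene. Neither sharing nor the nearest start of any gene was counted over the 477 genes with a peak. Neither is therefore shown to be particular to chaperone genes. The peaks at hsp-1, dnj-9 and dnj-13 were in no other protein-coding window. The summit at dnj-13 lay inside an annotated gene on the opposite strand, dhgd-1.

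Divergent neighbours were common among the chaperone genes without a peak too. The nearest protein-coding gene upstream that did not overlap the chaperone gene pointed the other way for 6 of the 8 genes with a peak. All of these had less than 1000 bp between. It did so for 22 of the 41 genes without a peak, of which 16 had less than 1000 bp between. The same count over all protein-coding genes is not given here.

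Long heat shock elements stood in every inducible window and in most constitutive ones, with and without a peak. A run of 3 alternating units, which extends GAANNTTC by NNGAA or TTCNNGAA by NNTTC, was found in 7 of 7 inducible windows and 4 of 6 constitutive windows (hsp-1, hsp-110, hsp-6 and hsp-90). It was found in 2 of 29 dnj- windows (dnj-12 and dnj-13) and in 0 of the 7 other small heat shock windows. Of the 8 genes with a peak 3 held it and of the 41 without one 10 did, where 3.84% of all protein-coding windows held it. The 7 inducible genes and these 10 both include the 6 hsp-16 genes. Their windows overlap in pairs and share sequence, so neither count is one of separate observations. At least 2 neighbouring units were in 32 of the 49 windows (65.3%), against 55.0% of all protein-coding windows, so the shorter form sets the chaperone genes apart little. Matches in a window are descriptions of the sequence, and no binding of HSF-1 was measured.

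**Figure D5:**
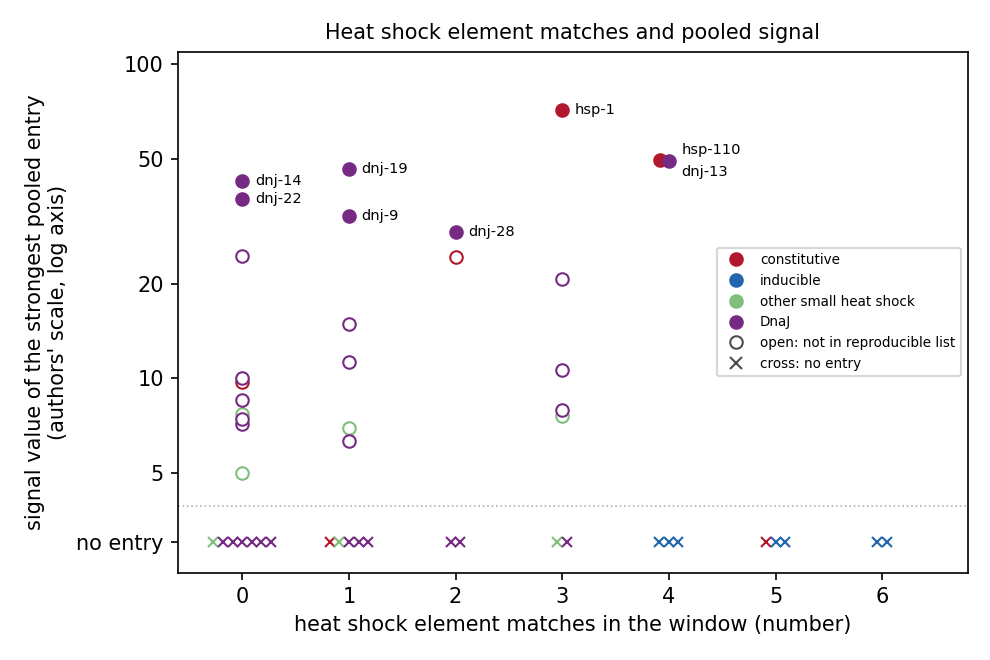
Number of 2-unit heat shock element matches in the window (x axis) and signal value of the strongest pooled entry (y axis, authors' scale, log axis) for the 49 genes; filled points are in the reproducible list, and crosses mark genes with no pooled entry. The 7 inducible genes have 4 to 6 matches and no pooled entry, while dnj-14 and dnj-22 have a peak with 0 matches. The 6 hsp-16 genes among them have windows that overlap in pairs, so they are not separate observations.

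Close to the summits the picture by word was mixed. TGCGC lay within the 101 bp around 5 of the 8 strongest summits (hsp-1, dnj-9, dnj-13, dnj-14 and dnj-19), where 34.9% of all 748 summits had it. GTCTC was at 1 (hsp-110), where 39.7% of all summits had it, and GAGAGAG was at 1 (hsp-1), where 13.8% had it. CTGCGTC was at 0, where 13.5% of all summits had it. At least 2 heat shock units were at 4 (hsp-1, hsp-110, dnj-19 and dnj-28), where 6.55% of all summits had them. With 8 peaks and words known from these same peaks, these counts are descriptions. GC content at the 8 summits was 32.7% (hsp-110) to 58.4% (dnj-14), with a median of 46%, and the median of all 748 summits was 49.5%.

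Over the whole window the longer word lay in hsp-16 windows but in none with a peak. CTGCGTC was in the windows of all 6 hsp-16 genes, which had no entry, and in 1 other of the 49 windows, that of dnj-7, also without an entry. It was in 7.23% of all protein-coding windows and in 21.4% of the 477 with a peak. The hsp-16 windows share sequence, so they are not separate observations. TGCGC was in 5 of the 8 windows with a peak, in 15 of the 41 without, in 0 of 7 inducible windows, in 31.0% of all protein-coding windows and in 65.2% of the 477 with a peak, close to the 62.5% that 5 of 8 makes. The median GC content of the window was 36.2% in the constitutive list and 38.6% in the inducible list, and 34.6% over all protein-coding genes.

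Of the 49 genes, 20 had no entry in the window in any of the 4 lists, a state shared by 63.4% of all protein-coding genes. Besides the 6 hsp-16 genes, hsp-75, hsp-90, hsp-12.2, hsp-12.3 and hsp-17 these were 9 dnj- genes. Among the 9 were dnj-7, a J protein of the endoplasmic reticulum, and dnj-15, a mitochondrial one. For hsp-90 this holds for the window of the gene start alone. A reproducible peak with a signal of 49.7 lay at -387 bp from its other transcript start. At the other end, 15 genes had an entry in the pooled and in both replicates' lists, as had 9.42% of all protein-coding genes. By role, a reproducible peak was at 2 of 3 cytosolic type A and B genes, 0 of 4 genes of the endoplasmic reticulum and 0 of 3 mitochondrial genes. It was at 4 of the 19 dnj- genes that were given no role here. As 2.39% of all protein-coding genes had such a peak, 0 of 4 and 0 of 3 are what most genes would give. Of the mitochondrial genes, dnj-10 had an entry in replicate 2 alone (5.26) and dnj-21 in the pooled list (7.16) and, at another summit, in replicate 1 (7.96).

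Some co-chaperones of the HSP70 and HSP90 cycle also had peaks. The wider list of 21 other pathway genes joined co-chaperones (bag-1, unc-23, chn-1, sti-1, daf-41, cdc-37, unc-45, sgt-1, ahsa-1, hip-1, fkb-6 and pph-5) with the regulators hsf-1, hsb-1, ddl-1, ddl-2, atfs-1, dve-1 and ubl-5 and the inducible HSP70 genes F44E5.4 and F44E5.5. Of these 21 genes, 3 had a reproducible peak (14.3%, against the 2.39% of all protein-coding genes given above) and 18 had none. bag-1, a nucleotide exchange factor of HSP70, had 65.6 in the pooled list, 43.9 in replicate 1 and 19.8 in replicate 2. ahsa-1, which activates the HSP90 ATPase, had 47.6 in the pooled list, 34.6 in replicate 1 and 12.7 in replicate 2. sti-1, which links HSP70 to HSP90, had 30.3 in the pooled list, 16.9 in replicate 1 and 12.9 in replicate 2. hsf-1, the regulator of the heat shock response, had an entry of 5.69 in the pooled list at position 24226, 5.23 in replicate 1 and none in replicate 2.

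The HSP70 genes of the endoplasmic reticulum, which the naming rule leaves out, differed from each other in these lists. hsp-3 had a reproducible peak with a signal of 58.4 at -56 bp from its start, and hsp-4 had no entry in any list.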

How the data were processed

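Per the text files deposited with the lists, the authors called candidate peaks for each replicate and for the pooled replicates, each from the alignments and 1 further file whose content those texts do not describe, and kept those past an irreproducible discovery rate threshold, on ce11 and ce10. Aligner, caller and threshold: not given in the sources used here. Signal values were taken as deposited by the authors, with no scale stated. The depth of each sample is unknown, and no read totals were used. The 4 ce11 lists were used and the 4 ce10 lists were not.

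A summit was the start of the interval plus the deposited offset, and coordinates are 1-based. All ce11 entries lay inside the RefSeq chromosomes. All 49 genes matched a RefSeq entry. The windows code was tested on simulated data. Python 3.11.15, NumPy 2.4.6 and matplotlib 3.10.9 were used. No test was made, because 1 group allows none over samples. Named are every gene with a peak, all constitutive and inducible genes, those among the 748 strongest entries of any list, and the 5 highest pooled entries without a peak. Other names were added after their values were seen. RefSeq alone gives hsp- names to F08H9.3, F08H9.4 and K09C4.3, which were not counted. The genes, lists and words were chosen with earlier results of these data known.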

Additional observations from a re-analysis of the deposited data

How the results depend on the processing

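The counts were recomputed under 9 alternatives, and the inducible and the other small heat shock genes had 0 peaks in each. These zeros say little. Each class has 7 genes, and 1.33% to 3.07% of all protein-coding genes had a peak under these settings, so 0 was likely throughout. Of all 49 genes, 4 had a peak when the window ran 250 bp upstream and 50 bp downstream (against 1.57% of all protein-coding genes, as for the percentages that follow), 2 with the nearest gene start within 2 kb (2.03%), and 5 with peaks at or above the list's median signal of 38.6 (1.33%), against 8 (2.39%). For constitutive genes the count was 0 with the smaller window and 0 with the nearest start, against 2. For dnj- genes it was 2 with the nearest start and 3 at the median signal, against 6. The strongest summits lie 175 to 385 bp upstream and mostly nearer to other starts, and 3 of the 8 peaks are below the median. When the window ran 1000 bp upstream and 200 bp downstream (3.07%), or with whole intervals (2.69%), hsp-60 was added, and with the starts of all transcripts (2.5%) hsp-90 was added, giving 9 of 49 each. Without replicate 1 the count was 6 (2.12%) and without replicate 2 it was 8 (2.31%), with dnj-29 in place of dnj-9. The strongest pooled entries gave 8, but this was fixed in advance, as those 748 entries are the reproducible list itself. No paired analysis was possible because there was 1 group and no test. Depth is unknown, so a gene without an entry is not shown to lack binding.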
